A study of Mus musculus with 24 samples.

Results

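HF-only regions are stretches of C57BL/6J mouse liver chromatin that carried a listed FAIRE-seq peak on high fat diet and no listed peak in the other C57BL/6J diet groups. The peaks of 6 deposited lists on chromosomes 1 to 19 were merged where they shared at least 1 bp. A merged region was kept when it held a peak of the C57BL/6J high fat list and none of the C57BL/6J Reversal or Control list. This gave 1961 HF-only regions among 49364 regions in all, a share of 3.97%. Of the 30873 regions with a C57BL/6J high fat peak they made up 6.35% (95% Wilson interval 6.09 to 6.63). All but 1 of them held a single high fat peak. They were chosen by the peak calls of the C57BL/6J lists, so their absence from the Reversal and Control lists is their definition, and their rank, width and spacing in the high fat list are given as descriptions. The A/J lists took no part in the choice beyond the merging of overlapping peaks.

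Mice of the inbred strains C57BL/6J and A/J ate high fat diet for 16 weeks (HF), 8 weeks of high fat diet followed by 8 weeks of control diet (Reversal), or control diet for 16 weeks (Control). For Reversal samples a diet tag gives 16 weeks of control diet, and the 8 weeks of the treatment protocol were followed. Each strain and diet had 2 FAIRE-seq libraries, 12 in all, and 1 peak list. The age and number of the mice, the depth of each library and any pooling of libraries before peak calling are not given in the sources used here. With 1 list per strain and diet no test between diets could be run, and every interval below covers counting error only. On chromosomes 1 to 19 the C57BL/6J lists held 32116 peaks on HF, 31669 on Reversal and 33948 on Control, and the A/J lists held 33216, 34741 and 35811 in the same order of diets.

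FAIRE-seq recovers DNA that is poorly crosslinked to histones, and so marks stretches where nucleosomes are displaced by transcription factors and the transcription machinery. In liver such open chromatin lies at promoters of expressed genes and at enhancers, many of them bound by hepatocyte factors and by nuclear receptors that sense fatty acids, sterols and bile acids. C57BL/6J mice are widely used as a strain that becomes obese and glucose intolerant on high fat diet, and A/J mice as one that is more resistant. Positions below are those of the deposited lists, in mm9 and counted from 1. Genes at these positions are not named and the liver label was not checked against marker genes, because the gene annotation used here is of another assembly.

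HF-only regions were weak peaks. Their signal, the authors' height per peak on a scale that is not given, ran from 0.0850 through a median of 0.0943 to 0.299 in the HF list, whose lowest listed signal was 0.0850. Ranked from the strongest peak (0%) to the weakest (100%), the median HF-only peak stood at 89.3% of the HF list (distribution-free 95% interval 88.8 to 89.9), against 46.0% for the other HF regions. None lay in the strongest 30% of the HF list, 32 lay in the strongest 60%, and 1538 of 1961 (78.4%) lay in the weakest 20%. The share of HF regions that were HF-only was 0.557% at ranks of 50 to 60% (17 of 3053), 3.07% at 60 to 70% and 9.83% at 70 to 80%. It was 20.1% at 80 to 90% and 30.6% (29.0 to 32.3) in the last 10%. Both other C57BL/6J lists had the same shape, with 28.9% Reversal-only regions in the last 10% of the Reversal list and 56.3% Control-only regions in the last 10% of the Control list. In all, 1676 regions were Reversal-only, 5.49% of Reversal regions, and 4387 were Control-only, 13.4% of Control regions.

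**Figure D1:**
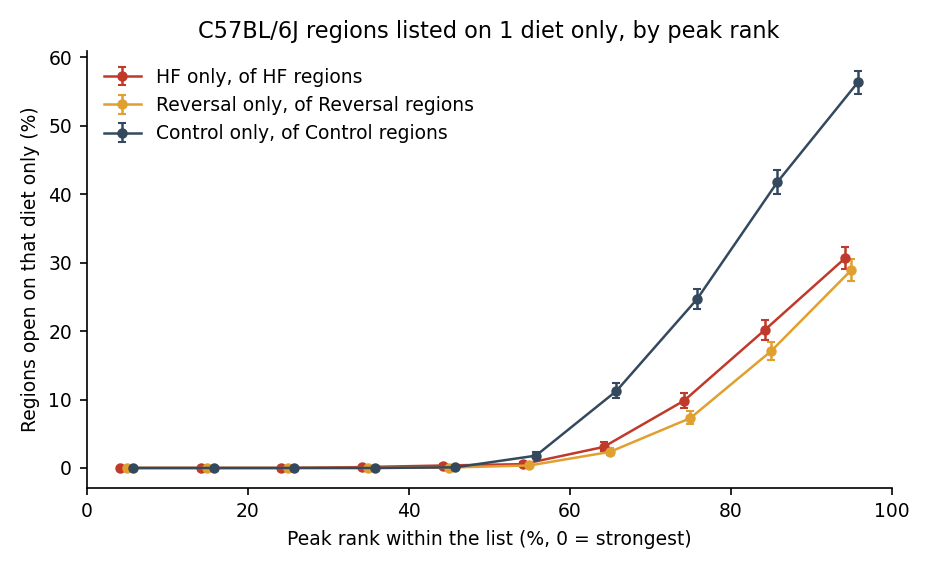
Share of C57BL/6J regions listed on 1 diet only (y axis, percent) by the rank of their peak within the list of that diet (x axis, 10% bins, 0 for the strongest peaks), for HF, Reversal and Control; bars are 95% Wilson intervals for counting error. All 3 curves lie near 0 over the stronger part of the list and reach 30.6% on HF, 28.9% on Reversal and 56.3% on Control in the last bin.

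The lists do not show that chromatin at these regions was closed on Reversal or Control. Peaks carry running numbers that increase with position along each chromosome without exception, and these numbers reach totals of 163827 on HF, 176298 on Reversal and 244259 on Control in C57BL/6J. Each total adds the highest listed number of every chromosome, X and Y included, and is thus a least value. The whole deposited lists, with 33371, 32727 and 35465 peaks, thus hold at most 20.4%, 18.6% and 14.5% of the numbered peaks. For 1938 HF-only regions a listed Reversal peak stood on each side, and in 1936 of them (99.9%) at least 1 number was skipped between these flanking peaks, so that a numbered but unlisted peak lay somewhere in the interval. For Control this held in 1952 of 1959 regions (99.6%). Such shares were not particular to HF-only regions. Skipped numbers stood on Control at 100% of regions with HF and Reversal but no Control peak. They stood at 100% of Reversal-only regions on HF and on Control, and at 99.98% of Control-only regions on HF and 100% on Reversal. The median number of skipped peaks was 8 on Reversal, within a median interval of 51.1 kb, and 10 on Control, within 53.3 kb. The sources used here do not say what the numbers count, and they are read here as numbers of all called peaks. Whether any of these unlisted peaks lay on the HF-only region itself cannot be read from the lists.

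Regions where the numbering left no room for an unlisted peak were rare, and they were picked out here after their values were seen. There were 7 against Control and 2 against Reversal. The region on chromosome 16 from 8603981 to 8604329 was the only one without room in both lists, with an HF signal of 0.0903 at rank 93.6% and no A/J peak. Another, on chromosome 4 from 94810363 to 94810775, had an HF signal of 0.133 at rank 63.9%, stood in a Control interval of 99.8 kb without any numbered peak, and held a peak in A/J Reversal and A/J Control but not in A/J HF. The remaining regions without room had HF ranks between 85.7% and 98.0%.

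HF-only regions lay at widely varied distances from the Reversal and Control peaks of C57BL/6J. The gap from the HF peak to the nearest Reversal or Control peak had a median of 6539 bp (5915 to 7213), it exceeded 10 kb in 786 regions (40.1%) and was at most 1 kb in 381 (19.4%). Just inside the rule, the region on chromosome 18 from 7323447 to 7323925 was 36 bp from a Reversal peak, and the region on chromosome 12 from 87419771 to 87420153 was 38 bp from a Control peak. The next, on chromosome 11 with its HF peak from 77443904 to 77444193, was 40 bp from a Control peak. Outside the rule, and counted per region, HF peaks shared at least 164 bp with a Control or Reversal peak, except in 6 regions. Those 6 were joined to such a peak only through a peak of another list. A region can also hold a further HF peak joined only through an A/J peak. Merging the C57BL/6J lists alone gave 2041 HF-only regions, against 1961. The fewest shared bases, 164, were the whole width of a narrow HF peak on chromosome 19 from 3063286 to 3063449. The next 2 were on chromosome 9 from 104476910 to 104477095, with 172 bp shared of 186, and on chromosome 14 from 20110559 to 20110839, with 174 of 281.

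The strongest HF-only peaks were either single peaks near a peak of the other C57BL/6J lists or part of tight runs. The highest signal of all, 0.299 at rank 32.9%, belonged to a peak of 295 bp on chromosome 6 from 49186386 to 49186680, which lay 1197 bp from a Reversal peak and 1190 bp from a Control peak. The second, 0.292 at rank 33.5%, was 313 bp wide on chromosome 16 from 35981668 to 35981980, at 1134 bp from a Reversal peak and 1180 bp from a Control peak. Neither held a peak in any A/J list. Of the 10 strongest HF-only peaks, 7 belonged to runs and only 1 of the 10 had an A/J peak.

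Runs were defined, after the data were seen, as at least 4 HF-only regions with gaps of at most 10 kb, and there were 4 of them with 29 regions. The longest held 15 HF-only regions within 32.2 kb on chromosome 17, from 3006673 to 3038890, 1.515 kb from the first listed peak of the chromosome, at the end that carries the centromere in the mouse. Their HF signals ran from 0.0864 through a median of 0.131 to 0.248, at ranks between 38.3% and 98.1%, and their widths had a median of 601 bp. None of the 15 held an A/J peak. The HF list had 3 further peaks inside this run, at ranks of 33.4%, 25.7% and 26.7%, that were not HF-only. They overlapped 4 Control peaks at ranks between 66.2% and 80.8%, and A/J peaks of which 4 were on HF, 2 on Reversal and 1 on Control, at ranks of 66.5% or weaker. The Reversal list of C57BL/6J had no peak inside the run.

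Another 2 runs were empty in every other list. On chromosome 16, 5 HF-only regions lay between 3231585 and 3239952, at 216 kb from the first listed peak, with HF signals of 0.0934 to 0.253, and the widest HF-only peak of all, 1854 bp from 3235824 to 3237677, was among them at 0.223. On chromosome 7, 5 HF-only regions lay between 71218299 and 71231731, with signals of 0.129 to 0.217. No Reversal or Control peak of C57BL/6J and no A/J peak fell inside either run. The 25 regions of these 3 runs had a median HF peak width of 539 bp (449 to 825), against 292 bp for all HF-only regions. The remaining run, on chromosome 15 from 78670660 to 78681248, held 4 weak HF-only regions among peaks of all 6 lists. Runs made up 1.48% of HF-only regions, against 0.394% of regions with HF and Reversal but no Control peak, none of the Reversal-only and 0.501% of the Control-only regions. Repeat content and the copy number of these stretches were not examined, and their part in the result was not tested.

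**Figure D2:**
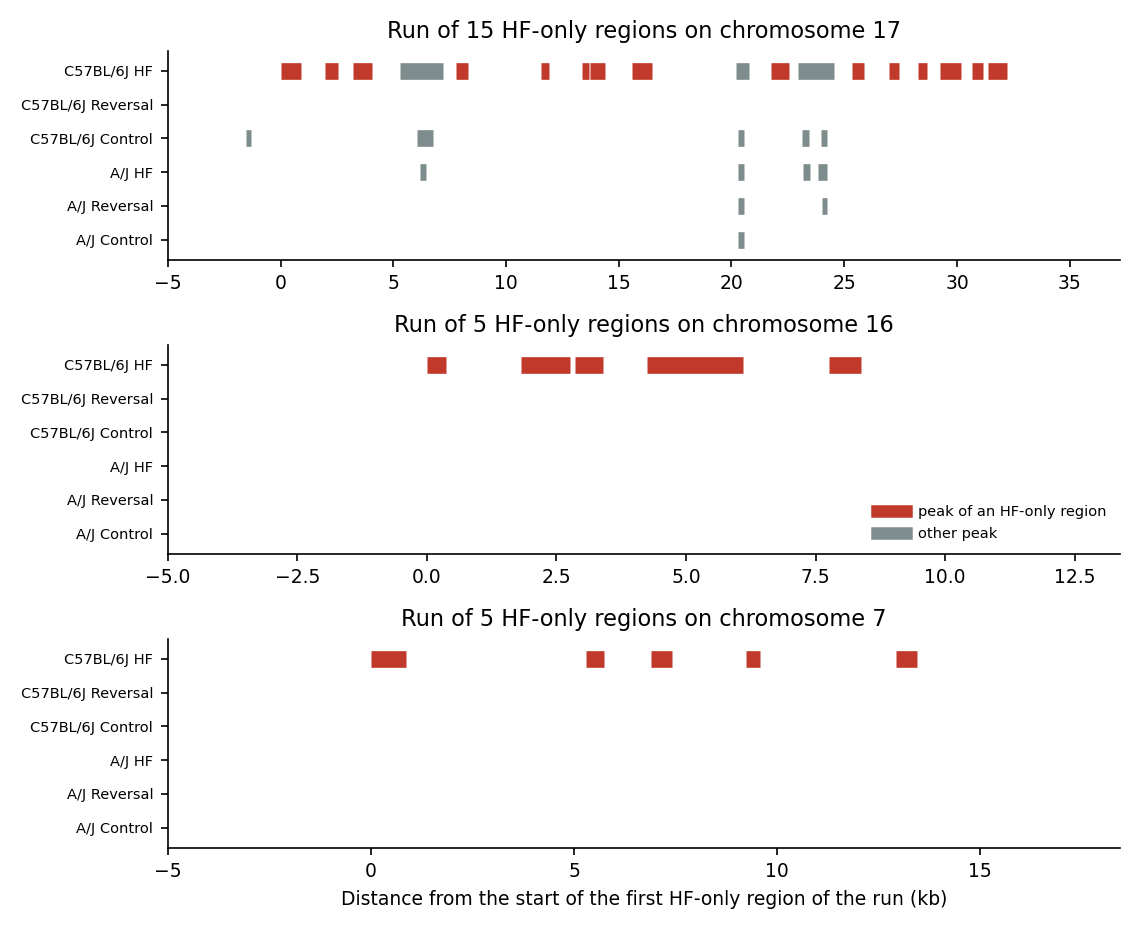
Peaks of each list (rows) in and around the 3 runs of HF-only regions that held no A/J peak, by distance in kb from the start of the first HF-only region of the run (x axis); red bars are peaks of HF-only regions, grey bars other peaks. The runs on chromosomes 16 and 7 are empty in the other 5 lists, while the run on chromosome 17 holds 3 other HF peaks over peaks of Control and of A/J.

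HF-only regions, those of the runs included, were spread over chromosomes 1 to 19. Their share of the HF regions of a chromosome ran from 5.58% on chromosome 12 (66 of 1182) to 7.67% on chromosome 18 (66 of 860), and on none of the 19 chromosomes did the interval leave out the share over all. They fell into 1026 windows of 1 Mb, of which 525 held a single region and 50 held at least 5. The fullest window, on chromosome 17 from 3000001 to 4000000, held 17 regions among 31 HF regions, 15 of them in the run above. The next held 11 each, on chromosome 10 from 127000001 to 128000000 among 72 HF regions and on chromosome 8 from 19000001 to 20000000 among 60. In the chromosome 10 window HF signals ran from 0.0853 to 0.108 and 7 of the 11 lacked an A/J peak, and in the chromosome 8 window they ran from 0.0867 to 0.113 and 4 of 11 lacked one. The median distance to the nearest other HF-only region was 181 kb (164 to 202), against 114 kb between regions with HF and Reversal but no Control peak, 178 kb between Reversal-only and 169 kb between Control-only regions.

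HF-only peaks were narrow, as weak peaks are in this list. Their median width was 292 bp (288 to 296) with a range of 180 to 1854 bp, and the middle 50% lay between 252 and 369 bp. The other HF regions had a median of 443 bp as they stand, and of 279 bp when weighted to the HF-only regions' distribution over 5% bins of HF rank. After the peak of 1854 bp, the widest were a peak of 1526 bp between 85086222 and 85087747 on chromosome 1, at an HF signal of 0.0948, and one of 1127 bp between 87505929 and 87507055 on that chromosome, at 0.0960. Neither of these 2 held an A/J peak.

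More than 50% of HF-only regions held a peak in A/J liver, most of them on all 3 diets. At least 1 of the A/J lists held a peak at 1146 of 1961 HF-only regions (58.4%, 56.2 to 60.6), against 83.1% of all C57BL/6J HF regions. All 3 A/J lists held a peak at 911 (46.5%, 44.3 to 48.7), against 74.6% of all C57BL/6J HF regions, and no A/J list did at 815 (41.6%). Much of the distance to the other HF regions went with peak rank. Weighted to the same HF ranks, 57.9% of the other HF regions had an A/J peak, a difference of 0.52 percentage points (-1.99 to 3.03). At ranks of 80 to 90% the share was 61.5% of 611 HF-only regions (57.6 to 65.3) and 58.7% of 2424 other HF regions (56.8 to 60.7). In the bin of 70 to 80% it was 70.1% of 298 and 67.2% of 2734. The order was the opposite at 60 to 70%, with 71.0% of 93 HF-only regions (61.1 to 79.2) and 77.7% of 2940 other HF regions. So it was at ranks of 30 to 60%, which hold the 32 strongest HF-only regions. There an A/J peak was missing at 20 of 32 HF-only regions (62.5%, 45.3 to 77.1) against 824 of 9185 other HF regions (8.97%, 8.40 to 9.57). This last contrast was not weighted by rank. Of the 20 regions 12 lay in runs, and the interval counts such neighbours as separate. Outside the runs an A/J peak was missing at 8 of 20 (interval 21.9 to 61.3%).

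**Figure D3:**
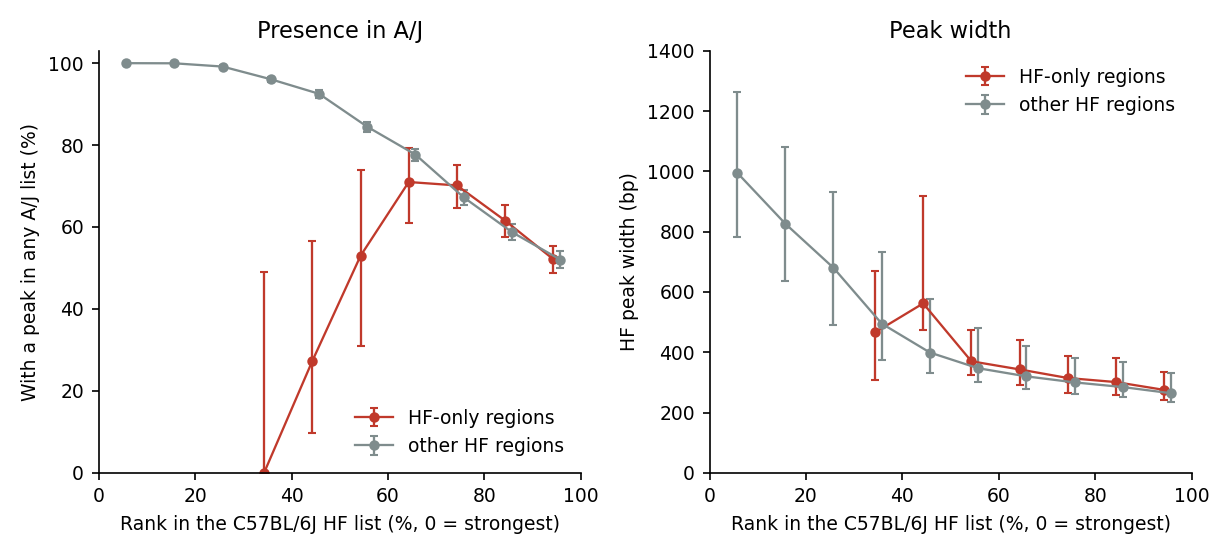
Left, share of C57BL/6J HF regions with a peak in any A/J list (y axis, percent), and right, width of their HF peak in bp (median, bars from the lower to the upper quartile), by rank in the C57BL/6J HF list (x axis, 10% bins) for HF-only regions and other HF regions; bars on the left are 95% Wilson intervals. In the last bin the A/J shares are 52.1% and 52.0%, and between ranks of 30 and 50% the 15 HF-only regions lie far below the other HF regions.

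Few HF-only regions were HF-only in A/J as well. Of the 1146 HF-only regions with an A/J peak, 31 (2.71%, 1.91 to 3.81) held it in A/J HF alone, against 4.6% of all C57BL/6J HF regions with an A/J peak and 4.89% of all regions with one. As a share of all HF-only regions this was 1.58%, against 5.81% of the other HF regions at the same HF ranks, a difference of -4.23 percentage points (-5.03 to -3.42). The share among regions with an A/J peak depended on list length, and with the 20000 strongest peaks of every list it was 5.79% of HF-only regions against 5.03% of all HF regions, while the difference at equal ranks remained negative at -4.56 points. Over all A/J peaks, 50.1% of HF-only regions held one on A/J HF, 53.7% on A/J Reversal and 53.3% on A/J Control. Set against the rank-weighted other HF regions, these were differences of -2.38 points on A/J HF (-4.92 to 0.16), 6.99 on A/J Reversal (4.47 to 9.52) and 2.67 on A/J Control (0.14 to 5.20). With the 25000 strongest Reversal and Control peaks of C57BL/6J these differences were -5.84 on A/J HF (-7.95 to -3.73), 2.30 on A/J Reversal (0.19 to 4.41) and 0.34 on A/J Control (-1.77 to 2.45). Where 1 or 2 A/J lists held a peak, A/J HF was among them at 72 of 235 HF-only regions (30.6%, 25.1 to 36.8). Among other HF regions as they stand, not weighted by HF rank, it was 1858 of 2381 (78.0%). A peak in A/J but not on A/J HF was held by 8.31% of HF-only regions. At the same HF ranks the other HF regions had 5.41%, a difference of 2.90 points (1.55 to 4.25). The most frequent partial pattern was A/J Reversal with A/J Control and no A/J HF, at 72 HF-only regions (3.67%). Other HF regions at the same HF ranks had it at 2.99%, a difference of 0.69 points (-0.25 to 1.62). How reads of each strain map to mm9 was not examined, and its part in the result was not tested.

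**Figure D4:**
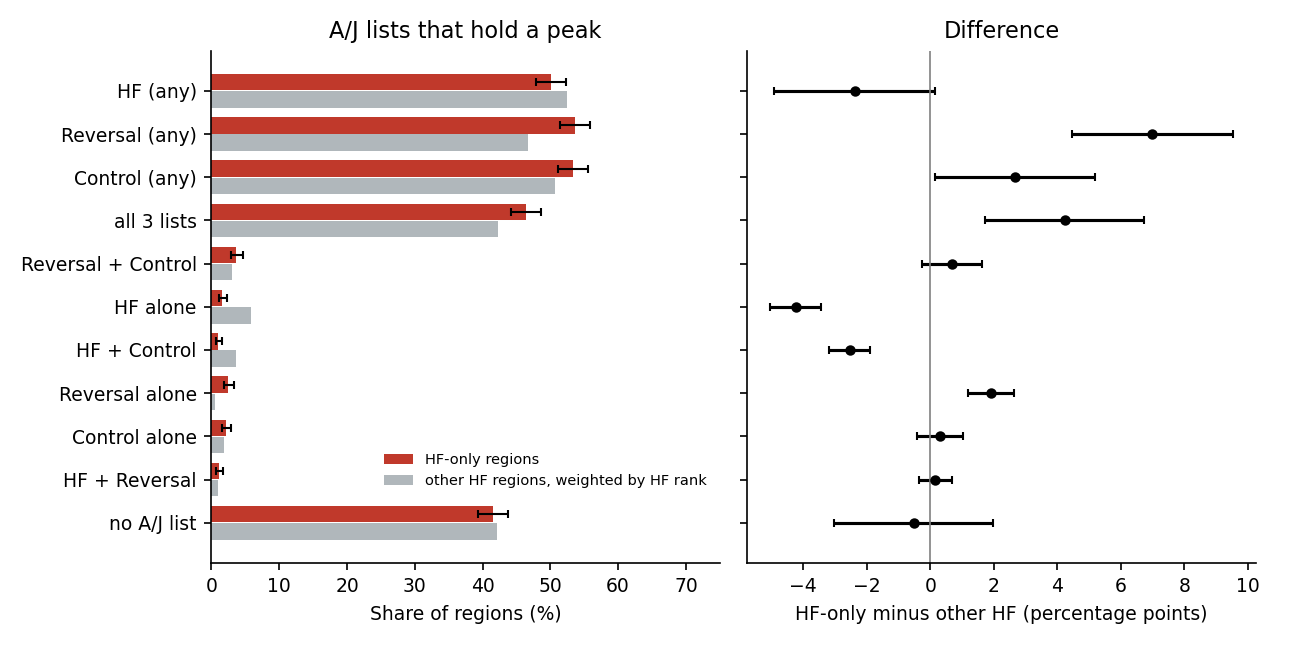
Left, share of HF-only regions (red, with 95% Wilson intervals) and of other C57BL/6J HF regions weighted to the same HF ranks (grey) by the A/J lists that hold a peak (rows; the first 3 rows count any peak of that diet, the others are exact combinations); right, the difference in percentage points with its 95% counting interval. A/J HF alone stands at 1.58% and 5.81%, and A/J Reversal at 53.7% and 46.7%.

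The low share in A/J HF alone was not particular to HF-only regions. At the same HF ranks, A/J HF alone held the peak at 1.58% of HF-only regions and 1.57% of regions with HF and Reversal but no Control peak, against 6.34% of those with HF and Control and 7.30% of those with all 3 C57BL/6J peaks. Any A/J peak was present at 58.4% of HF-only regions, 79.3% of HF and Reversal regions, 28.2% of HF and Control regions and 61.9% of regions with all 3. A/J Reversal held a peak at 53.7% of HF-only regions, 73.3% of HF and Reversal, 19.2% of HF and Control regions and 47.5% of those with all 3. The shares that follow are not weighted by rank. Among regions in 1 or 2 A/J lists, A/J HF was included at 30.6% of HF-only, 36.9% of HF and Reversal and 26.6% of Reversal-only regions, against 55.1% of Control-only regions. Reversal-only regions had an A/J peak in 67.0% of cases and a peak in all 3 A/J lists in 44.2%. Control-only regions had an A/J peak in 14.4% of cases. These are values of single lists.

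The 31 HF-only regions that A/J shared on HF alone were weak in both strains. In the C57BL/6J HF list their signals ran from 0.0854 through a median of 0.0949 to 0.111, at a median rank of 88.8%, and in the A/J HF list they had a median rank of 90.6% with a best rank of 65.6%. The strongest in C57BL/6J, on chromosome 10 from 76545342 to 76545587, ranked at 75.9% with 0.111 and, in A/J HF, at 95.1%. The next were on chromosome 5 from 105000295 to 105000911, at ranks of 76.7% in C57BL/6J and 89.3% in A/J, and on chromosome 11 from 102307448 to 102307762, at 80.3% and 82.2%.

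Where A/J was open on all 3 diets, its peaks at HF-only regions mostly lay in the weaker part of the A/J HF list, with 164 of 911 (18.0%) in its stronger 50%. These 911 HF-only regions had a median rank of 87.3% in the C57BL/6J HF list, while in A/J their median ranks were 65.2% on HF (63.5 to 66.6), 55.2% on Reversal (53.8 to 56.5) and 56.2% on Control (54.7 to 57.7). Other HF regions in all 3 A/J lists had weighted medians of 66.6%, 62.2% and 59.2% at the same C57BL/6J ranks. Lists differ in length, so that ranks of different lists show no change. The strongest such region lay on chromosome 1 with its HF peak from 44175501 to 44175958, at rank 43.4% in C57BL/6J HF, against 39.9% on HF, 33.7% on Reversal and 32.8% on Control in A/J. This peak stood 149 bp from a Reversal and 158 bp from a Control peak of C57BL/6J. On chromosome 12 from 70784607 to 70785096 the ranks were 47.2% in C57BL/6J HF, against 44.7%, 23.9% and 28.8% on HF, Reversal and Control in A/J. On chromosome 1 from 154912849 to 154913410, 26040 bp from a Reversal peak of C57BL/6J, they were 47.4%, against 38.9%, 56.1% and 53.2%.

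Peaks of both strains at HF-only regions had their summits close together. At the 983 HF-only regions with an A/J HF peak the summits of both HF peaks lay a median of 11 bp apart (10 to 12), and 900 (91.6%, 89.7 to 93.1) were within 50 bp. Other HF regions had a rank-weighted median of 9 bp. At HF-only regions in all 3 A/J lists the median width was 292 bp for the C57BL/6J HF peak, against 342 bp on HF, 369 bp on Reversal and 371 bp on Control in A/J.

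The number of HF-only regions rests on where the lists end. With the 20000 strongest peaks of every list it was 741, and with the 25000 strongest of the HF list alone it was 328. With the 25000 strongest peaks of the Reversal and Control lists, and the HF list whole, it was 5009.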

How the data were processed

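FAIRE-seq libraries of mouse liver were grouped by strain and diet from their titles. Per the submitters' processing notes the build is mm9, and Bowtie2, TopHat and DESeq2 are named without version or role; no source used here gives the peak caller or its threshold. The authors deposited 1 peak list per strain and diet, with start, end, summit and a signal per peak on an unstated scale, sorted by signal. Each list names a strain and diet that match 1 group of library titles. The expression tables were not used here, since they hold no positions.

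Peaks on chromosomes 1 to 19 were merged with Python 3.11.15 and pandas 2.3.3, tested on simulated lists and checked against bedtools 2.31.1. A region's rank and width are those of its strongest peak, with ranks taken over chromosomes 1 to 19. Shares have 95% Wilson intervals (scipy 1.17.1), medians have intervals from order statistics, and rank-weighted values use 5% bins of HF rank, with normal-approximation intervals for differences that cover counting error. Named regions followed a rule: the 10 strongest, the 3 strongest in A/J HF alone, in all 3 A/J lists and in none, the 3 widest, those nearest the rule's edge and the 3 fullest 1 Mb windows. Regions, rules and comparisons were chosen with earlier results of these data known. Alternatives changed merging, overlap and list length.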

Additional observations from a re-analysis of the deposited data

How the results depend on the processing

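The 5 main values and the rank-weighted A/J differences were recomputed under 9 settings, of which 2, without clustered regions and with chromosomes X and Y, were added after the data were seen. Merging the C57BL/6J lists alone, merging peaks up to 200 bp apart, requiring 50% overlap and both added settings left the 5 main values within their intervals, or the count within 1.5 times, with 1828 to 2041 HF-only regions. Changing the length of the lists moved the values given next beyond these limits. With the 30000 strongest peaks of every list, HF-only regions made up 5.98% of HF regions, 55.6% had an A/J peak, 4.59% of these held it in A/J HF alone, and the median width was 300 bp. With the 20000 strongest the count was 741, the share 3.81%, A/J HF alone 5.79% and the width 361 bp. With the 25000 strongest HF peaks the count was 328, the share 1.36%, any A/J peak 69.5%, A/J HF alone 0.877% and the width 332.5 bp. With the 25000 strongest Reversal and Control peaks the count was 5009, the share 16.2% and A/J HF alone 4.59%. Against all HF regions with an A/J peak, A/J HF alone was less frequent among HF-only regions (2.71% and 4.60%) except with 20000 peaks (5.79% and 5.03%), and nearly equal with 25000 Reversal and Control peaks (4.59% and 4.60%). The rank-weighted difference for A/J HF alone stayed between -6.03 and -3.99 percentage points, and that for A/J Reversal between 2.30 and 7.99. The interval for A/J Reversal came close to 0 with 25000 Reversal and Control peaks (0.19 to 4.41) and with 20000 peaks of every list (0.62 to 8.63). For A/J HF it ran from -5.84 to -1.43, and its interval lay below 0 with 25000 Reversal and Control peaks (-5.84, -7.95 to -3.73) and with chromosomes X and Y (-2.63, -5.12 to -0.14). For any A/J peak it ran from -3.21 to 1.56, and with 25000 Reversal and Control peaks its interval lay below 0 (-2.88, -4.97 to -0.79). For A/J Control it ran from 0.34 to 3.88, with 0 inside the interval under 4 settings. The cause was not tested. No paired analysis was possible because each strain and diet has 1 list without replicate columns, which also prevents leaving out a library.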

Other observations

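Chromosomes X and Y, which the rule leaves out, had HF-only regions too. On chromosome X 59 of 1099 HF regions were HF-only (5.37%, 4.18 to 6.86), with a highest signal of 0.128, and 54 of the 59 (91.5%) held no A/J peak, against 542 of all 1099 HF regions of the chromosome (49.3%). Reversal-only regions on chromosome X were 20 of 916 (2.18%) and Control-only regions 265 of 1331 (19.9%). On chromosome Y 6 of 119 HF regions were HF-only, and none of the 6 held an A/J peak, against 70 of all 119 HF regions without one (58.8%). The A/J shares of chromosomes X and Y were not weighted by HF rank, so that part of these contrasts may go with rank. Reversal-only regions on chromosome Y were 1 of 89 and Control-only regions 27 of 142.

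In A/J too the numbering rarely left no room for an unlisted peak. Between the listed neighbours of an HF-only region without a peak in the A/J list concerned, no number was skipped at 24 of 968 regions on HF, 32 of 896 on Reversal and 36 of 903 on Control.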
